A study of Rattus norvegicus with 9 samples.

Results

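Bladder transitional cell carcinomas (BTCC) raised in rats with N-methyl-N-nitrosourea (MNU), an alkylating carcinogen, were compared with the bladders of normal rats, gene by gene, beyond MAPK signalling. The comparison rests on the 3 tumor arrays and the 3 normal arrays, 6 of the 9 arrays of the series, and these samples were chosen by their titles. The genes described are secreted proteins, surface proteins, transcription factors and metabolic enzymes in 16 lists, of which 1774 of the 2047 listed genes had a probe set of their own, out of 14217 genes measured on the array. All samples came from female Sprague-Dawley (SD) rats whose labels give an age of 10 weeks. The tumors came from 3 rats that had MNU at 20 mg/ml instilled into the bladder weekly for 10 weeks, with growth seen on CT and the type read from H&E staining. The 3 normal bladders came from 3 separate rats, which the design calls normal, although every label, theirs included, repeats the MNU text, and no vehicle instillation is described. The remaining 3 arrays hold normal-appearing tissue adjacent to the same 3 tumors, and their values are given beside the tumors only where needed. Each tumor is 1 piece of whole tissue, so its RNA mixes the carcinoma with the muscle, stroma and blood cells in that piece. With bulk RNA, fewer cells of a type and less RNA per cell cannot be told apart.

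The bladder is lined by urothelium, a layered epithelium in which basal cells renew the tissue and superficial umbrella cells carry uroplakins and tight junctions that hold urine back. Under it lie a fibroblast-rich lamina propria and the detrusor, a thick coat of smooth muscle. Carcinomas of this lining commonly remodel the basement membrane, draw in leukocytes, and change their supply of glucose, amino acids and glutathione, and the lists were arranged by these roles. The unit throughout is the log2 signal that the MAS5 algorithm gives a probe set, on which 1 unit is a factor of 2, and it was compared for 1 probe set at a time.

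Promoters of 3 genes with large rises are shown here because each holds a motif of a stress-responsive or growth-responsive factor. The antioxidant response element, bound by the Nrf2 factor, was searched as TGACNNNGC, and the AP-1 motif, bound by Fos and Jun proteins, as TGANTCA. Both strands were read, in the 250 bases before the annotated start, and the letters overlap, so that 1 stretch can hold both. Sequences are those of RefSeq on the GRCr8 build, written 5′ to 3′ on the strand of the gene, with the motif in capitals. Gpx2, which encodes a glutathione peroxidase of epithelia, holds the first motif between 13 and 5 bases before its start. Mmp7, a matrix metalloproteinase of epithelia, holds the second between 80 and 74 bases before its start, and Serpinb2, an inhibitor of the urokinase-type plasminogen activator, between 189 and 183 bases before it.
Gpx2, chr6:101230034-101230283, minus strand: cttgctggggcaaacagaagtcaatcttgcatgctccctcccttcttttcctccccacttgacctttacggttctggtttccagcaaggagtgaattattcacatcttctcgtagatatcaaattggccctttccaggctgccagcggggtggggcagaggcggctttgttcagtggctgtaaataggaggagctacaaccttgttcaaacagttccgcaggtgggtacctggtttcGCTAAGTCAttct
Mmp7, chr8:13132793-13133042, plus strand: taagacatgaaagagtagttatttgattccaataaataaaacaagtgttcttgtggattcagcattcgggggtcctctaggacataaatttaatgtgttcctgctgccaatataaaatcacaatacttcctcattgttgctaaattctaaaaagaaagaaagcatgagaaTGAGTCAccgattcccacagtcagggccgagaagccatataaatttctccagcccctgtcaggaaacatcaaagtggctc
Serpinb2, chr13:24055771-24056020, plus strand: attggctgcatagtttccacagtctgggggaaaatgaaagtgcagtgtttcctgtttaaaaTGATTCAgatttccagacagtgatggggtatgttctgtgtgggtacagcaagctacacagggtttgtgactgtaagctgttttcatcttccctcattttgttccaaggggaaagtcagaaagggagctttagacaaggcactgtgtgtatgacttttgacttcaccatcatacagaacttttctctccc

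TGACNNNGC was found in 10.2% of the 27457 promoter windows of the table, in 4 of the 36 windows of genes named below as higher in tumors (Ceacam1, Gpx2, Col7a1 and Gk), and in 2 of the 30 of genes named as lower (Crebl2 and Gls2). TGANTCA was found in 6.36% of all windows, in 3 of the 36 (Adh7, Mmp7 and Serpinb2) and in 1 of the 30 (Efemp1). A match describes letters in the window and not a bound site.

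Urothelial markers were present on all arrays, so that the labelled tissue was seen in its RNA. Upk3a, a uroplakin, read 14.03, 13.88 and 13.81 in tumors 1, 2 and 3 and 14.11, 14.03 and 14.04 in the normal bladders, and did not pass the test (adjusted p = 0.40 by limma). Krt20, a keratin of umbrella cells, read 7.15, 3.72 and 6.53 against 9.64, 9.58 and 9.64, and it fell by 3.82 (SE 0.80, adjusted p = 0.021 by limma), with no overlap between the groups. Krt5, another keratin, went the other way: it read 12.97, 13.47 and 13.11 against 9.79, 9.46 and 9.57. It rose by 3.58 (SE 0.16, adjusted p = 0.00029 by limma). Of 17 urothelial markers, 5 were higher in tumors (Krt5, Krt7, Krt19, Cdh1 and Cldn4) and 2 lower (Krt20 and Upk1a). Their summed linear signal stood at 126%, 151% and 130% of the normal mean in tumors 1, 2 and 3.

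Tumor 1 stood apart in its muscle and stroma. The summed signal of 19 smooth muscle markers was 68.0% of the normal mean in tumor 1, 10.9% in tumor 2 and 9.68% in tumor 3, and that of 12 fibroblast markers was 76.7%, 6.96% and 16.5%. No marker of either list was higher, 10 smooth muscle and 2 fibroblast markers were lower, and none was dim on all 6 arrays. Desmin (Des), the filament of muscle, read 14.02, 7.03 and 8.34 in the tumors and 14.28, 14.14 and 14.41 in the normal bladders. Neutrophil markers moved the other way: the summed signal of the 8 measured was 1590%, 5990% and 8810% of the normal mean, 4 were higher (S100a8, S100a9, Csf3r and Fcnb), and Camp and Np4 were dim on all 6 arrays. Most of that sum in the tumors was S100a8 and S100a9, and the other 6 markers summed to 405%, 448% and 482%. Macrophage and dendritic cell markers summed to between 107% and 157% of the normal mean, and endothelial markers to between 83.2% and 119%. Values without tumor 1 are given with each class of genes below.

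**Figure D1:**
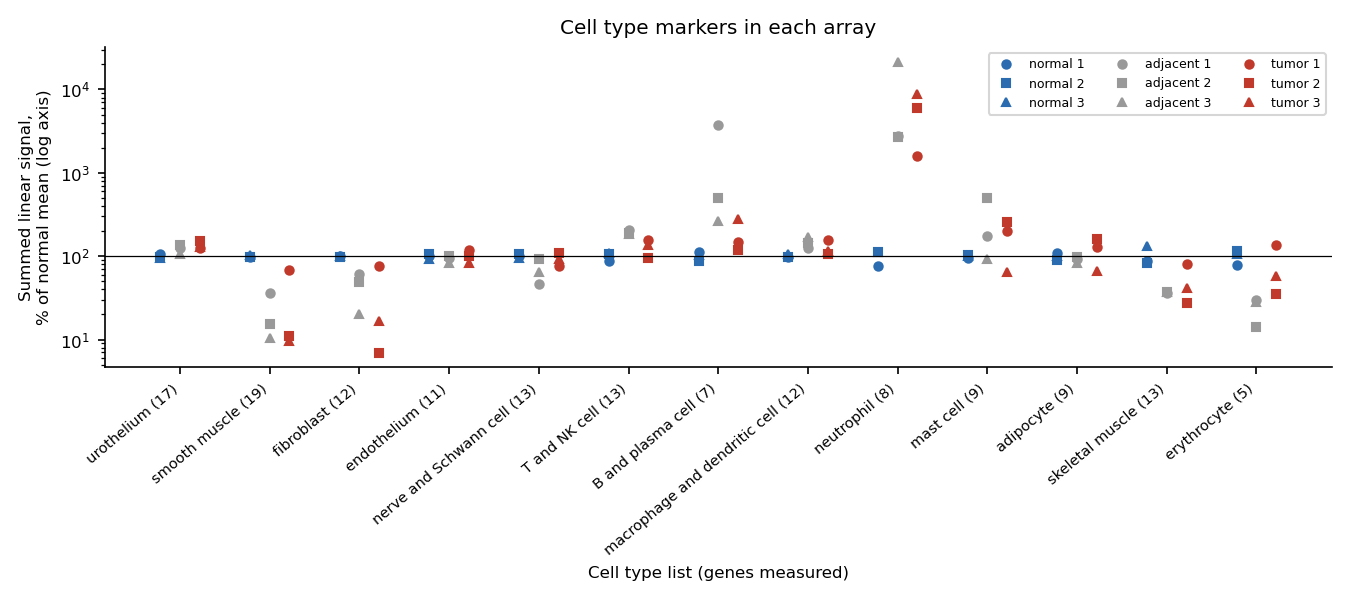
Summed linear signal of each cell type list (horizontal axis, with the number of genes measured) in each of the 9 arrays, as a percentage of the mean of the 3 normal arrays on a log axis; blue is normal bladder, grey adjacent tissue and red tumor, with a circle, square and triangle for replicates 1, 2 and 3. Smooth muscle stood at 68.0% in tumor 1 against 10.9% and 9.68% in tumors 2 and 3, and neutrophil markers stood between 1590% and 8810% in the tumors.

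Of 31042 probe sets, 2756 (8.88%) were higher and 2818 (9.08%) lower in tumors at an adjusted p under 0.05 in limma, together 18.0%. By gene, 1927 of 14217 (13.6%) were higher and 1414 (9.95%) lower, together 23.5%. The tumor arrays had lower medians than the normal arrays, by 0.20 on the log2 scale on average, and higher probe sets made up 49.4% of the calls as deposited but 62.3% (3634 higher and 2195 lower) when each array was centred on its median. The 3 tumors and the 3 normal bladders did not overlap at all for 45.8% of genes. Counts of calls moved with the array left out: of all genes, 20.4% were higher and 17.5% lower without tumor 1, 9.18% and 6.71% without tumor 2, and 7.0% and 4.94% without tumor 3. Without normal bladders 1, 2 and 3, 4.35%, 4.11% and 4.77% were higher and 2.38%, 2.23% and 2.51% lower, and the counts by list below are to be read against these shares. A stricter set of 784 genes (5.51%), 505 higher and 279 lower, passed in the full fit and again without each of the 6 arrays in turn. Between arrays, Pearson's r over all probe sets was 0.899 to 0.931 among tumors, 0.940 to 0.946 among normal bladders and 0.843 to 0.910 between the groups, which describes probe sets and not replicates.

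Over the 16 lists, 338 of 1774 genes (19.1%) were higher and 271 (15.3%) lower, each share somewhat above that of all genes. The lists were chosen with earlier results of these data known. They also held more bright genes: 881 of 1774 had a mean signal of at least 500, against 6349 of all 14217. An excess over all genes is therefore not read as a trait of these classes. Secreted genes held 57 higher and 40 lower of 336 measured (17.0% and 11.9%), surface genes 120 and 94 of 543 (22.1% and 17.3%), transcription factor genes 40 and 59 of 358 (11.2% and 16.5%) and metabolic genes 121 and 78 of 537 (22.5% and 14.5%). The median log2 difference was -0.47, 0.01, -0.16 and 0.15 in that order, against 0.05 over all genes. With every signal under 50 set to 50, because values that low spread widely between replicates, the medians were -0.14, 0.00, 0.00 and 0.05, against 0.00 over all genes. Among single lists, rises ran from 1.71% of mesenchymal, muscle and patterning factors to 35.2% of adhesion and junction genes, and falls from 3.85% of mucosal defence genes to 25.6% of mesenchymal, muscle and patterning factors. The order of the lists changed when single arrays were left out, for rises and for falls.

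**Figure D2:**
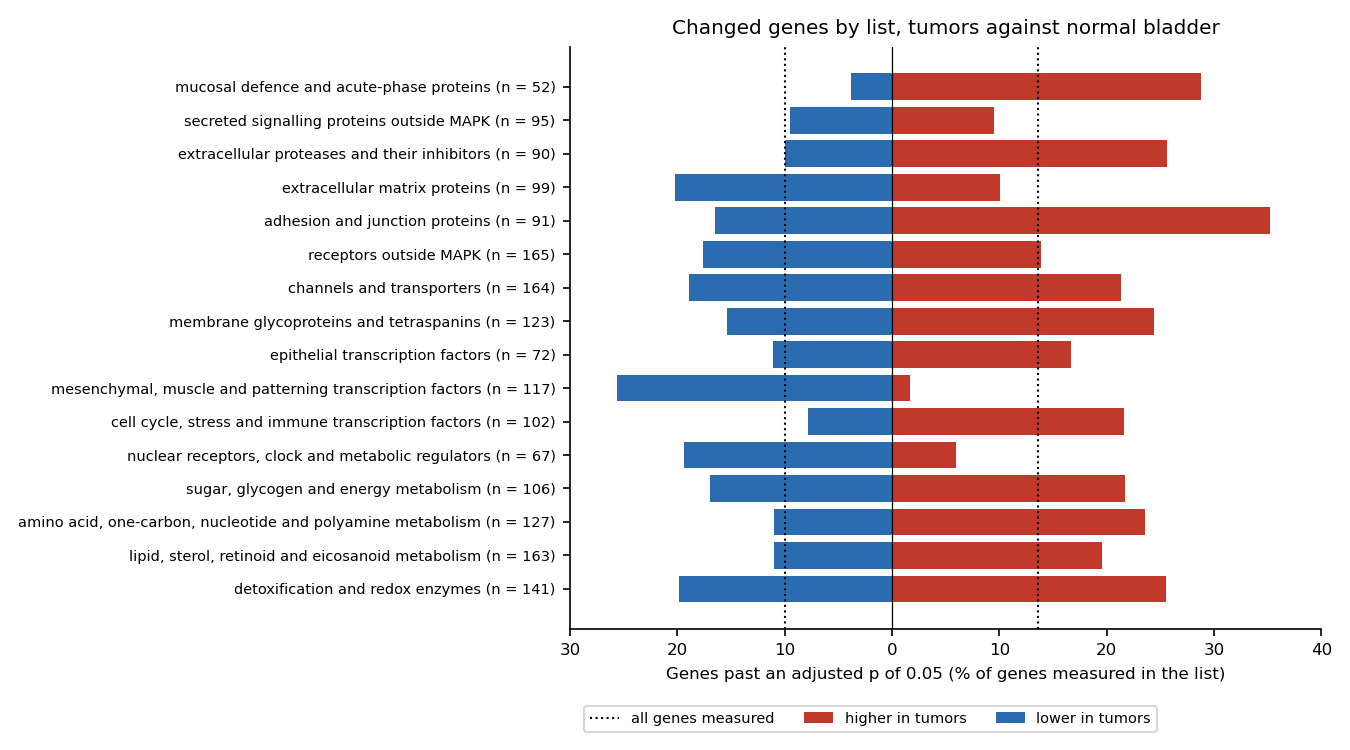
Share of the measured genes of each list (vertical axis, n genes) that passed an adjusted p of 0.05 in tumors against normal bladder, with lower genes to the left in blue and higher genes to the right in red, in percent. Dotted lines mark the shares over all 14217 genes, 9.95% lower and 13.6% higher. Most lists lie beyond a line on one side or both, but they were chosen with earlier results of these data known. Rises ran from 1.71% (mesenchymal factors) to 35.2% (adhesion) and falls from 3.85% (mucosal defence) to 25.6% (mesenchymal factors).

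The genes below were taken by 1 rule: in each list, the 3 largest rises and falls among genes with a mean linear signal of at least 500 over the 9 arrays, no overlap between groups, and a call that held without each array. The level of 500 is the trimmed mean to which the arrays were scaled. Where fewer than 2 genes qualified in a direction, genes of the full fit alone filled the place up to 2 and are given with the arrays that end their call. The rule took 82 genes, 44 higher and 38 lower, of which 11 were filled up in this way. All 82 had to be free of overlap, so that non-overlap of a named gene is fixed by the choice. Other members of the lists are named where they complete a pathway, and these were chosen after their values were seen.

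Among secreted proteins, the calprotectin genes and several chemokines were higher in tumors. Of 52 mucosal defence and acute-phase genes, 15 were higher and 2 lower (28.8% and 3.85%), with a median of 0.78, or 0.35 with signals under 50 set to 50. S100a8, which with S100a9 forms calprotectin, a zinc-binding protein of neutrophils and stressed epithelium, read 10.22, 11.40 and 12.42 in tumors 1, 2 and 3 and 4.09, 4.97 and 5.44 in the normal bladders. The normal values all lay under a signal of 50, so that the rise was at least 52.1-fold (adjusted p = 0.0023). S100a9 read 10.96, 13.38 and 13.81 in tumors and 5.29, 7.06 and 5.53 in normal bladders, a difference of 6.75 (SE 0.79, adjusted p = 0.0040). Both genes are also neutrophil markers and made up 85.9%, 95.9% and 97.0% of the summed signal of that list in tumors 1, 2 and 3. The part of these cells in the rise was not tested. Ccl20, which attracts dendritic and Th17 cells, read 8.28, 9.13 and 11.47 against 2.36, 2.15 and 2.06, at least 15.8-fold higher (adjusted p = 0.0031).

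Chemokines that draw neutrophils rose in the same list. Cxcl1 read 10.47, 11.97 and 13.50 in tumors against 7.92, 6.31 and 5.74 (difference 5.32, SE 0.82, adjusted p = 0.0084). Cxcl2 read 9.16, 11.61 and 12.78 against 5.90, 5.70 and 5.27 (difference 5.55, SE 0.82, adjusted p = 0.0074). In both, tumor 1 was the lowest tumor and tumor 3 the highest, an order shared by S100a8 and S100a9. The sum of the other 6 neutrophil markers had the same order (405%, 448% and 482% of the normal mean). Single markers among these differed in order. Csf3r read 7.69, 8.17 and 7.86, lowest in tumor 1 but highest in tumor 2. Fcnb read 7.76, 6.25 and 7.85, lowest in tumor 2, and Cxcr2 read 5.80, 6.59 and 5.66, lowest in tumor 3. Mmp8, at a low signal, kept the order of the sum (4.91, 5.10 and 5.68). The part of neutrophils in the chemokine rises was not tested. Slpi, a protease inhibitor of mucosal fluids, was 4.09 higher (SE 0.71, adjusted p = 0.011), and Pigr, which carries IgA across epithelium, was 2.99 higher (SE 0.36, adjusted p = 0.0046). Il33, an alarmin held in the nuclei of basal epithelium and stroma, read 11.43, 8.48 and 9.10 in tumors and 13.13, 12.90 and 13.17 in normal bladders, and it fell by 3.40 (SE 0.68, adjusted p = 0.018). Its call ended without tumor 3 or without normal 1, 2 or 3 (adjusted p up to 0.073), and its tumor values lay highest in tumor 1, as the fibroblast markers did.

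Of 95 secreted signalling genes outside MAPK, 9 were higher and 9 lower (9.47% each). That is below the 13.6% of all genes for rises and near their 9.95% for falls. The median was -0.65 (-0.3 with signals under 50 set to 50). Angptl4, an inhibitor of lipoprotein lipase that responds to hypoxia and fatty acids, read 10.15, 11.08 and 10.67 in tumors and 8.11, 8.26 and 8.81 in normal bladders, a 4.72-fold rise (log2 difference 2.24, SE 0.28, adjusted p = 0.0047). Sema3f, a secreted semaphorin, read 9.24, 9.50 and 9.24 against 8.42, 8.33 and 8.20, a 2.01-fold rise (adjusted p = 0.0072). Gdf15, a stress hormone of the TGF-beta family, was at least 10.7-fold higher at a lower signal (adjusted p = 0.0035). Sfrp2, a Wnt antagonist of stroma, read 10.62, 4.55 and 8.21 in tumors against 12.46, 12.54 and 12.80, and Bmp5, a bone morphogenetic protein, read 8.84, 5.15 and 6.63 against 10.69, 10.43 and 10.51. The falls of Sfrp2 by 4.81 (SE 1.32, adjusted p = 0.046) and of Bmp5 by 3.67 (SE 0.81, adjusted p = 0.024) both ended without tumor 3 or without any 1 normal bladder. Without tumor 1, 34 genes of this list were lower, in a fit in which 17.5% of all genes were. The tumor values of Sfrp2 and Bmp5 ranked as the fibroblast markers did, with tumor 1 nearest to normal and tumor 2 farthest, and the part of stromal content in them was not tested.

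Extracellular proteases and their inhibitors were higher more often than lower. Of 90 genes, 23 were higher and 9 lower (25.6% and 10.0%), and 16 of the 23 kept their call without each array. Over all genes, 505 of 1927 rises did so. Serpinb2 read 12.00, 12.47 and 13.29 in tumors, while it read 0.00, 0.00 and 1.71 in the normal bladders, where its signal was at the bottom of the scale. Serpinb10, a clade B serpin encoded beside it in many mammals, read 9.19, 9.65 and 12.01 against 2.91, 1.58 and 1.02, at least 25.0-fold higher (adjusted p = 0.0027). Mmp7 read 7.78, 12.78 and 13.57 against 1.99, 2.56 and 2.48, so that tumor 1 lay far under the other two tumors but above every normal bladder. Among matrix metalloproteinases that were not reached by the rule, the collagenase gene Mmp13 read 9.72, 11.81 and 13.05 against 6.40, 5.84 and 5.51 (difference 5.61, SE 0.76, adjusted p = 0.0060). The stromelysin gene Mmp3 read 12.05, 10.97 and 12.31 against 7.14, 6.65 and 7.29 (difference 4.75, SE 0.36, adjusted p = 0.0016).

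Members of the plasminogen system moved as well. Plau, which encodes the urokinase that Serpinb2 inhibits, read 11.27, 12.63 and 12.42 in tumors and 9.17, 9.02 and 8.88 in normal bladders, an 8.49-fold rise (log2 difference 3.09, SE 0.34, adjusted p = 0.0035), and the urokinase receptor gene Plaur was 4.44-fold higher (adjusted p = 0.0083). Adam8, a membrane protease of leukocytes and tumors, was 26.0-fold higher (adjusted p = 0.0025), and Cst6, a cystatin of epithelia, was 13.7-fold higher (adjusted p = 0.0030). Cpxm2, a carboxypeptidase-like protein, read 8.91, 4.61 and 5.41 in tumors against 10.47, 10.45 and 10.80 and fell by 4.26 (SE 1.0, adjusted p = 0.029). Htra3, a secreted serine protease, read 9.90, 7.61 and 7.57 against 10.70, 10.66 and 10.13 and fell by 2.14 (SE 0.60, adjusted p = 0.050, just under the threshold). Both falls ended without tumor 2, tumor 3 or any 1 normal bladder, and tumor 1 stayed nearest to normal in both.

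Matrix genes moved in both directions, and basement membrane genes were found on both sides. Of 99 extracellular matrix genes, 10 were higher and 20 lower (10.1% and 20.2%), with a median of -1.62 (-1.46 with signals under 50 set to 50). Col7a1, the collagen of the anchoring fibrils under epithelium, read 10.45, 9.82 and 10.09 in tumors and 7.40, 7.22 and 6.96 in normal bladders, a 7.64-fold rise (log2 difference 2.93, SE 0.21, adjusted p = 0.0016). Lamb3, a chain of the laminin that anchors epithelial cells, read 11.89, 13.19 and 12.65 against 10.31, 10.32 and 9.97 (difference 2.38, SE 0.31, adjusted p = 0.0054), and Lama3, another chain of the same trimer, was 4.02-fold higher (adjusted p = 0.0065). Col18a1, the precursor of endostatin, read 11.34, 10.68 and 10.47 against 8.81, 8.60 and 8.66 (difference 2.14, SE 0.23, adjusted p = 0.0033). Lama5, the alpha chain of the laminins of most adult epithelia, was 2.29-fold higher (adjusted p = 0.0022).

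Some falls of matrix genes were even across the tumors and others were not. Col4a6, a basement membrane collagen of smooth muscle and some epithelia, read 7.0, 7.18 and 8.05 in tumors and 10.43, 10.48 and 10.38 in normal bladders, and it fell by 3.02 (SE 0.27, adjusted p = 0.0023). Tumor 1 was the lowest of the tumors for Col4a6, unlike for the smooth muscle markers. Efemp1, a fibulin, read 10.82, 10.41 and 11.29 against 12.48, 12.63 and 12.51 and fell by 1.70 (SE 0.21, adjusted p = 0.0050), and Lamb2 read 10.77, 10.00 and 10.19 against 11.94, 11.75 and 11.65 and fell by 1.46 (SE 0.21, adjusted p = 0.0068). Ogn, a small proteoglycan of stroma, read 8.94, 0.37 and 4.90 against 11.99, 12.17 and 11.78, and its call (adjusted p = 0.037) ended without tumor 3 or any 1 normal bladder. Without tumor 1, 68 of the 99 matrix genes were lower in place of 20, while the share of all genes lower rose from 9.95% to 17.5%. Without normal 1, 2 or 3 the number was 4, while that share was 2.38%, 2.23% and 2.51%.

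Over the 4 secreted lists, the 57 rises became 68, 58 and 46 without tumors 1, 2 and 3 and 37, 36 and 36 without normal bladders 1, 2 and 3. The 40 falls became 138 without tumor 1, where 17.5% of all genes were lower, 32 and 17 without tumors 2 and 3, and 9 without each normal bladder. Each such fit also has fewer degrees of freedom. Of the 336 genes measured, 33 rises and 8 falls held in all 6 fits, against 505 and 279 of all 14217 genes. The part of muscle and stroma content in the falls was not tested.

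**Figure D3:**
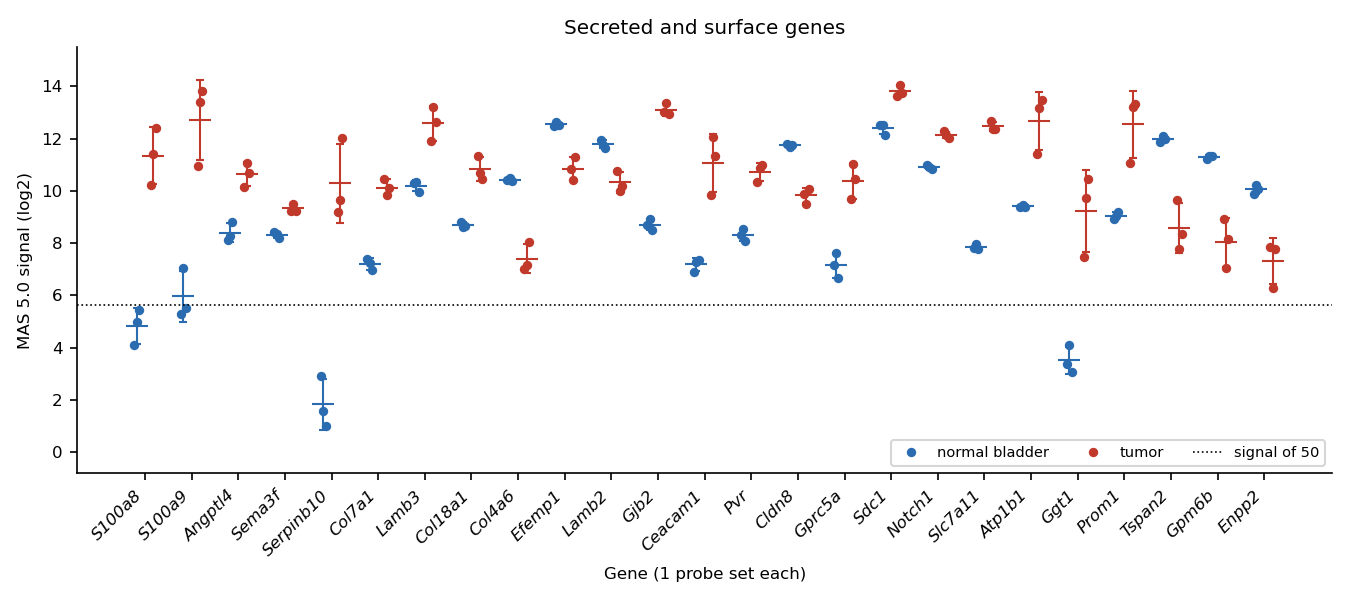
MAS5 signal (log2, vertical axis) of 25 secreted and surface genes taken by the rule, with 1 point per array (blue normal bladder, red tumor, 3 each), a bar at the mean and whiskers of 1 SD; the dotted line is a signal of 50. The rule fixes that the groups do not overlap for any gene shown. Normal values of S100a8, Serpinb10 and Ggt1 lie under the line, and tumor values of Gjb2 and Slc7a11 spread little (12.93 to 13.37 and 12.36 to 12.66).

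Among surface genes, a connexin and other adhesion proteins were among the rises taken by the rule. Of 91 adhesion and junction genes, 32 were higher and 15 lower (35.2% and 16.5%), with a median of 0.34 (0.16 with signals under 50 set to 50). Gjb2, a connexin that forms gap junctions in epithelia, read 13.02, 13.37 and 12.93 in tumors and 8.68, 8.93 and 8.50 in normal bladders. Each group was tight, and the rise was 21.1-fold (log2 difference 4.40, SE 0.17, adjusted p = 0.00016). Gjb6, a connexin encoded next to it, read 12.94, 13.15 and 12.63 against 10.83, 10.67 and 10.48, a 4.75-fold rise (adjusted p = 0.0016). Ceacam1, an adhesion molecule and inhibitory receptor, read 9.84, 12.04 and 11.32 against 6.90, 7.29 and 7.36, and Pvr, the nectin-like protein recognised by NK cells, read 10.34, 10.87 and 10.99 against 8.31, 8.54 and 8.08. They were 14.8-fold (adjusted p = 0.0055) and 5.36-fold higher (adjusted p = 0.0021).

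Several hemidesmosome and desmosome genes were higher too. Itgb4, the integrin chain of hemidesmosomes, read 11.02, 11.55 and 11.61 in tumors against 9.70, 9.48 and 9.39 (difference 1.87, SE 0.19, adjusted p = 0.0028), and its partner chain gene Itga6 was 2.62-fold higher (adjusted p = 0.0086). Dsc2, a desmosomal cadherin, was 5.07-fold higher (adjusted p = 0.0023). Claudins, which set the tightness of tight junctions, went in both directions. Cldn4 was 2.53-fold higher (adjusted p = 0.0036) and Cldn7 2.48-fold higher (adjusted p = 0.0080), while Cldn8 read 9.89, 9.51 and 10.07 against 11.80, 11.69 and 11.77 and fell by 1.93 (SE 0.16, adjusted p = 0.0019). Cldn11 fell by 3.21 (SE 0.36, adjusted p = 0.0036). Itga1, a collagen-binding integrin chain of smooth muscle and stroma, read 11.26, 8.84 and 8.05 against 12.37, 12.10 and 12.40 and fell by 2.91 (SE 0.73, adjusted p = 0.035), and its call ended without tumor 2, tumor 3 or any 1 normal bladder.

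Receptors outside MAPK signalling changed about as often as all genes in the upward direction. Of 165, 23 were higher and 29 lower (13.9% and 17.6%), with a median of -0.31 (-0.03 with signals under 50 set to 50). Gprc5a, an orphan receptor induced by retinoic acid, read 9.67, 11.03 and 10.46 in tumors and 7.17, 7.62 and 6.66 in normal bladders, a 9.45-fold rise (adjusted p = 0.0042). Sdc1, the heparan sulphate proteoglycan syndecan of epithelia, read 13.62, 14.03 and 13.75 against 12.50, 12.50 and 12.15, and Notch1, a receptor that guides epithelial fate, read 12.27, 12.12 and 12.01 against 10.99, 10.90 and 10.83. These were 2.67-fold (adjusted p = 0.0036) and 2.34-fold rises (adjusted p = 0.0025) of genes already bright in normal bladder. Cxcr4, the receptor of a stromal chemokine, was 5.28-fold higher (adjusted p = 0.0039) and Tlr2, a sensor of bacterial lipoproteins, 3.49-fold (adjusted p = 0.0052). Il11ra1, a cytokine receptor chain, read 8.71, 7.42 and 7.37 against 10.01, 10.12 and 10.35, and Fzd4, a Wnt receptor, read 8.96, 8.05 and 7.99 against 10.10, 10.02 and 10.08. Il11ra1 fell by 2.33 (SE 0.36, adjusted p = 0.0082) and Fzd4 by 1.73 (SE 0.26, adjusted p = 0.0080), both with tumor 1 nearest to normal.

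Importers of cystine and glucose rose among channels and transporters. Of 164 genes, 35 were higher and 31 lower (21.3% and 18.9%), with a median of 0.18 (0.00 with signals under 50 set to 50). Slc7a11, the cystine and glutamate exchanger that feeds glutathione synthesis, read 12.66, 12.37 and 12.36 in tumors and 7.83, 7.96 and 7.78 in normal bladders. Its 24.4-fold rise (log2 difference 4.61, SE 0.13, adjusted p = 3.9e-05) had little spread in either group, and the adjacent samples read 13.12, 11.37 and 12.65. Atp1b1, the beta chain of the sodium pump, read 11.42, 13.16 and 13.47 against 9.38, 9.46 and 9.37, a 9.72-fold rise (adjusted p = 0.0076) with tumor 1 the lowest tumor. Slc2a1, the glucose transporter of many carcinomas, read 11.93, 12.85 and 11.93 against 9.08, 9.14 and 9.25. Abcc4 and Abcc3, which export drugs and conjugates, were 5.21-fold (adjusted p = 0.0073) and 3.47-fold higher (adjusted p = 0.0071). Trpv2, a cation channel, was 5.87-fold higher (adjusted p = 0.0027).

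The named falls of the list were a calcium release channel, a potassium channel receptor and an anion transporter. Itpr1, the calcium release channel of the endoplasmic reticulum, read 9.83, 9.38 and 9.96 in tumors against 11.69, 11.84 and 11.74 and fell by 2.03 (SE 0.17, adjusted p = 0.0018). Abcc9, the sulphonylurea receptor of muscle potassium channels, read 10.21, 9.31 and 9.02 against 11.60, 11.68 and 11.37 and fell by 2.04 (SE 0.29, adjusted p = 0.0070). Slco3a1, an organic anion transporter, read 9.08, 8.49 and 8.97 against 10.37, 10.61 and 10.89 and fell by 1.77 (SE 0.20, adjusted p = 0.0039). Tumor 1 was the highest tumor for Abcc9 and Slco3a1 but not for Itpr1. The part of smooth muscle content in these falls was not tested.

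Membrane glycoproteins and tetraspanins held 30 higher and 19 lower genes of 123 (24.4% and 15.4%). Ggt1, the enzyme that splits extracellular glutathione, read 7.45, 9.73 and 10.46 in tumors and 3.37, 4.09 and 3.07 in normal bladders, at least 11.9-fold higher (adjusted p = 0.0056). Upk3bl1, a uroplakin-like gene, read 11.35, 12.68 and 12.24 against 7.96, 8.10 and 8.47, a 15.1-fold rise (adjusted p = 0.0020), while the umbrella cell uroplakin gene Upk1a read 12.98, 11.93 and 11.38 against 13.47, 13.40 and 13.35 (adjusted p = 0.048, lost without tumor 2, tumor 3 or any 1 normal bladder). Prom1, a glycoprotein of membrane protrusions, read 11.06, 13.22 and 13.33 against 8.91, 9.05 and 9.18, an 11.2-fold rise (adjusted p = 0.0094). Lypd3, a relative of the urokinase receptor found on squamous epithelium, was 9.77-fold higher (adjusted p = 0.0032), and Mall, a protein of membrane rafts, was 6.25-fold higher (adjusted p = 0.0020).

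Tspan2, a tetraspanin of muscle and glia, read 9.63, 7.79 and 8.33 in tumors and 11.85, 12.08 and 12.00 in normal bladders and fell by 3.39 (SE 0.42, adjusted p = 0.0047). Gpm6b, a glycoprotein of nerve and other cells, read 8.91, 7.05 and 8.15 against 11.21, 11.34 and 11.34 and fell by 3.26 (SE 0.42, adjusted p = 0.0053). Tumor 1 was the highest tumor for both. Enpp2, the autotaxin that makes lysophosphatidic acid, read 7.86, 6.30 and 7.79 against 9.87, 10.22 and 10.07 and fell by 2.73 (SE 0.41, adjusted p = 0.0077). Over the 4 surface lists, the 120 rises became 149, 92 and 80 without tumors 1, 2 and 3 and 57, 56 and 53 without normal bladders 1, 2 and 3, and the 94 falls became 162, 67 and 46, and 24, 25 and 24. Without tumor 1, 20.4% of all genes were higher and 17.5% lower. In all 6 fits, 48 rises and 22 falls of 543 genes held, against 505 and 279 of all 14217 genes.

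Of 72 epithelial factors, 12 were higher and 8 lower (16.7% and 11.1%). Elf3, an Ets factor of differentiating epithelium, read 10.87, 12.47 and 12.12 in tumors and 9.36, 9.20 and 9.18 in normal bladders, a 5.96-fold rise (adjusted p = 0.0072). Bhlhe40, a repressor that answers hypoxia and the clock, read 8.79, 10.09 and 10.25 against 6.88, 6.74 and 6.18, an 8.67-fold rise (adjusted p = 0.0054). Sox15, a factor of squamous epithelium, read 10.09, 10.78 and 10.30 against 8.69, 8.43 and 8.13, a 3.93-fold rise (adjusted p = 0.0039). Tumor 1 was the lowest tumor for each of these 3 genes. Klf5, a bright regulator of proliferating basal cells, read 12.98, 13.18 and 13.41 against 12.22, 12.18 and 11.95, a 2.11-fold rise (adjusted p = 0.0062). Tshz2, a zinc finger homeobox factor, read 8.28, 7.84 and 7.95 against 9.85, 9.86 and 10.28 and fell by 1.97 (SE 0.19, adjusted p = 0.0026). Trps1, a GATA-type repressor, fell by 1.80 (SE 0.35, adjusted p = 0.017), a call that ended without tumor 3 or any 1 normal bladder.

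Of 117 mesenchymal, muscle and patterning factors, 2 were higher and 30 lower (1.71% and 25.6%), with a median of -0.88 (-0.49 with signals under 50 set to 50). The rises were Eya2 and Runx1. Eya2, a phosphatase and co-activator of homeobox factors, read 10.72, 11.53 and 10.96 in tumors against 7.54, 6.53 and 7.06, a 16.3-fold rise (log2 difference 4.03, SE 0.31, adjusted p = 0.0016). Runx1, known for blood development and also made in epithelium, read 11.35, 11.68 and 11.56 against 10.55, 10.32 and 10.65, a 2.03-fold rise (adjusted p = 0.0062). Nfia read 10.94, 10.11 and 10.06 against 12.24, 12.29 and 12.30, and Nfib, another nuclear factor I gene, read 10.50, 9.73 and 9.55 against 11.43, 11.56 and 11.62. They fell by 1.91 (SE 0.23, adjusted p = 0.0046) and 1.61 (SE 0.24, adjusted p = 0.0077). Satb1, an organiser of chromatin, read 9.69, 8.57 and 9.51 against 11.08, 10.94 and 11.24 and fell by 1.83 (SE 0.29, adjusted p = 0.0088).

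Myocd, the co-activator that turns on smooth muscle genes, read 9.14, 4.72 and 4.33 in tumors against 10.72, 10.86 and 10.53. Tumor 1 lay below the normal bladders but nearer to them than tumors 2 and 3 did. Its call (adjusted p = 0.035) ended without tumor 2, tumor 3 or any 1 normal bladder. Foxf1, a factor of visceral mesenchyme, read 8.90, 7.42 and 7.68 against 10.11, 10.28 and 9.69 (adjusted p = 0.015, lost without tumor 3 or any 1 normal bladder). Without tumor 1, 59 of the 117 factors of this list were lower in place of 30, with 17.5% of all genes lower in that fit. Without tumors 2 and 3 there were 15 and 7, and without normal bladders 1, 2 and 3 there were 6, 5 and 6. Smooth muscle markers fell in the same arrays (68.0%, 10.9% and 9.68% of normal), and their part in these counts was not tested.

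Cell cycle, stress and immune factors held 22 higher and 8 lower of 102 (21.6% and 7.84%). Over all genes, 505 of 1927 rises held in all 6 fits, but only 1 of these 22. That gene was Irf8, a factor of macrophages, dendritic cells and B cells, and it read 9.77, 9.48 and 9.93 in tumors and 8.16, 8.10 and 8.23 in normal bladders, a 2.96-fold rise (adjusted p = 0.0029). Adjacent samples read 10.02, 10.34 and 10.16 for Irf8. Nfkbiz, an inducible IkB-like regulator of inflammation, read 10.64, 12.31 and 12.63 against 9.10, 9.20 and 9.08, a 6.66-fold rise whose call (adjusted p = 0.011) ended without any 1 normal bladder (adjusted p up to 0.055). Tsc22d3, a gene induced by glucocorticoids, read 10.41, 9.18 and 10.00 against 12.44, 12.56 and 12.27 and fell by 2.56 (SE 0.29, adjusted p = 0.0039). Crebl2, a small bZIP factor, read 9.11, 8.79 and 9.10 against 10.26, 10.11 and 10.17 and fell by 1.18 (SE 0.14, adjusted p = 0.0040).

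Of 67 nuclear receptors, clock and metabolic regulators, 4 were higher and 13 lower (5.97% and 19.4%), with a median of -0.21 (0.00 with signals under 50 set to 50). Nr3c1, the glucocorticoid receptor, read 10.12, 9.85 and 9.90 in tumors and 11.11, 10.88 and 11.12 in normal bladders and fell by 1.08 (SE 0.13, adjusted p = 0.0046), in the same direction as Tsc22d3. The other probe set of Nr3c1 did not pass. Rarb, a retinoic acid receptor, read 7.89, 8.86 and 8.48 against 10.32, 10.16 and 10.44, with tumor 1 the farthest from normal, and fell by 1.90 (SE 0.25, adjusted p = 0.0053). Gabpa, an Ets factor of mitochondrial genes, read 9.48, 9.72 and 9.80 against 10.86, 10.73 and 10.83 and fell by 1.14 (SE 0.13, adjusted p = 0.0037), and Npas2, a clock factor, fell by 1.98 (SE 0.25, adjusted p = 0.0053). Ppard and Nr2f6 were 1.67-fold and 1.62-fold higher, and both calls (adjusted p = 0.017 and 0.012) ended without any 1 normal bladder. Over the 4 factor lists, the 40 rises became 65, 25 and 20 without tumors 1, 2 and 3 and 16, 10 and 11 without normal bladders 1, 2 and 3. The 59 falls became 101, 38 and 27, and 14, 14 and 21, where the share of all genes lower without tumor 1 was 17.5%. In all 6 fits, 9 rises and 13 falls of 358 genes held, against 505 and 279 of all 14217 genes.

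**Figure D4:**
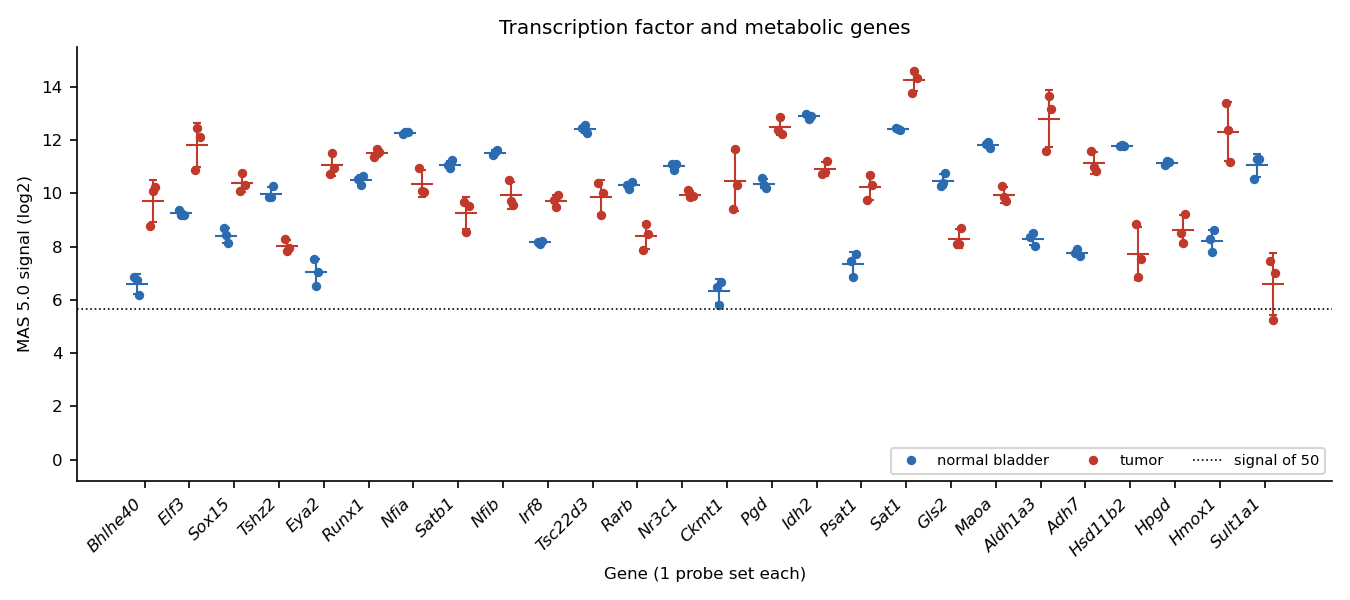
MAS5 signal (log2, vertical axis) of 26 transcription factor and metabolic genes taken by the rule, with 1 point per array (blue normal bladder, red tumor, 3 each), a bar at the mean and whiskers of 1 SD; the dotted line is a signal of 50. The rule fixes that the groups do not overlap for any gene shown. Normal bladders of Hsd11b2 lie between 11.78 and 11.83 above tumors of 6.86 to 8.84, and 1 tumor value of Sult1a1 (5.26) falls under the line.

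Among metabolic genes, enzymes of the pentose phosphate, serine, retinoid and glutathione pathways were among the named rises. Of 106 genes of sugar, glycogen and energy metabolism, 23 were higher and 18 lower (21.7% and 17.0%), with a median of 0.02 (0.00 with signals under 50 set to 50). Pgd, which makes NADPH in the pentose phosphate pathway, read 12.40, 12.86 and 12.24 in tumors and 10.57, 10.32 and 10.22 in normal bladders, a 4.39-fold rise (log2 difference 2.13, SE 0.19, adjusted p = 0.0021). Taldo1, an enzyme of the same pathway, was 2.72-fold higher (adjusted p = 0.0034), and Tkt, another, was 2.44-fold higher with a call (adjusted p = 0.016) that ended without any 1 normal bladder. Gk, the glycerol kinase, read 8.94, 10.05 and 9.73 against 7.42, 7.28 and 7.40, a 4.62-fold rise (adjusted p = 0.0051). Pgk1, a glycolytic kinase, was 2.94-fold higher (adjusted p = 0.0037).

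Creatine kinase genes moved in both directions. Ckmt1, the mitochondrial form of epithelia and brain, read 9.43, 11.68 and 10.31 in tumors and 6.49, 5.81 and 6.68 in normal bladders, a 17.7-fold rise (log2 difference 4.15, SE 0.54, adjusted p = 0.0055). Ckm, the form of skeletal muscle, read 7.21, 5.99 and 4.90 against 10.02, 9.77 and 10.28 and fell by 3.99 (SE 0.53, adjusted p = 0.0057). Ckb, the form of brain and smooth muscle, read 11.99, 10.48 and 9.73 against 12.76, 12.63 and 12.95, and its call (adjusted p = 0.034) ended without tumor 2, tumor 3 or any 1 normal bladder. Idh2, the mitochondrial isocitrate dehydrogenase that depends on NADP, read 10.72, 10.82 and 11.21 against 13.00, 12.81 and 12.89, so the tumors were alike. Gfpt2, which feeds hexosamine synthesis in stromal cells, read 9.17, 5.77 and 6.48 against 10.66, 10.37 and 9.97, and it fell by 3.19 (SE 0.80, adjusted p = 0.035), a call that ended without tumor 2, tumor 3 or any 1 normal bladder.

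Of 127 genes of amino acid, one-carbon, nucleotide and polyamine metabolism, 30 were higher and 14 lower (23.6% and 11%), with a median of 0.22 (0.12 with signals under 50 set to 50). The 3 enzymes that make serine from a glycolytic intermediate were all higher. Psat1, the transaminase among them, read 9.74, 10.68 and 10.31 in tumors against 7.47, 6.87 and 7.74, a 7.37-fold rise (log2 difference 2.88, SE 0.30, adjusted p = 0.0033). Phgdh, which commits carbon to the pathway, was 3.82-fold higher (adjusted p = 0.0067) and Psph, which ends it, 2.06-fold higher (adjusted p = 0.0068). Sat1, which acetylates polyamines, read 13.79, 14.59 and 14.35 against 12.44, 12.43 and 12.37, a 3.55-fold rise (adjusted p = 0.0036), and Asns, the asparagine synthetase, read 10.26, 10.45 and 10.97 against 9.03, 9.07 and 8.99.

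Enzymes that break down glutamine, valine and amines were the named falls of this list. Gls2, a glutaminase, read 8.10, 8.11 and 8.70 in tumors and 10.29, 10.39 and 10.77 in normal bladders and fell by 2.18 (SE 0.22, adjusted p = 0.0028). Aldh6a1, an enzyme of valine breakdown, read 8.88, 9.57 and 9.10 against 11.14, 11.30 and 11.16 and fell by 2.02 (SE 0.19, adjusted p = 0.0025). Its pathway neighbours Hibch and Pcca were 48.4% (adjusted p = 0.0037) and 36.6% (adjusted p = 0.0029) of the normal level. Maoa, a monoamine oxidase, read 10.29, 9.86 and 9.71 against 11.86, 11.92 and 11.72 and fell by 1.88 (SE 0.17, adjusted p = 0.0023). Of the 14 falls of the list, 8 held in all 6 fits, against 279 of 1414 over all genes. Tumor 1 was the lowest tumor for Gls2 and Aldh6a1 but the highest for Maoa.

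Of 163 genes of lipid, sterol, retinoid and eicosanoid metabolism, 32 were higher and 18 lower (19.6% and 11%), with a median of 0.22 (0.16 with signals under 50 set to 50). Aldh1a3, which makes retinoic acid, read 11.59, 13.65 and 13.17 in tumors against 8.37, 8.50 and 8.04, a 22.6-fold rise (log2 difference 4.50, SE 0.49, adjusted p = 0.0034). Adh7, an alcohol dehydrogenase of epithelia that also oxidises retinol, read 11.61, 11.01 and 10.83 against 7.75, 7.93 and 7.65, a 10.4-fold rise (adjusted p = 0.0010). Rdh10, a retinol dehydrogenase, read 8.61, 10.06 and 10.33 against 7.75, 7.80 and 7.78, but its call (adjusted p = 0.024) ended without tumor 2, tumor 3 or any 1 normal bladder. So 2 enzymes of retinoic acid synthesis were higher in the same samples in which the receptor gene Rarb was lower. Plin2, the coat of lipid droplets, read 12.84, 13.34 and 12.33 against 10.42, 10.36 and 10.36, a 5.49-fold rise (adjusted p = 0.0027). Of genes of cholesterol synthesis picked after their values were seen, Dhcr7 was 3.41-fold (adjusted p = 0.0027), Sqle 3.08-fold (adjusted p = 0.0054) and Idi1 2.19-fold higher (adjusted p = 0.0063).

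Enzymes that inactivate cortisol-like steroids and prostaglandins were among the falls of the lipid list. Hsd11b2, which inactivates glucocorticoids, read 8.84, 6.86 and 7.53 in tumors and 11.79, 11.83 and 11.78 in normal bladders. The tumors lay well under the tight normal group, and the gene fell by 4.06 (SE 0.45, adjusted p = 0.0035). Hpgd, which inactivates prostaglandins, read 8.50, 8.15 and 9.24 against 11.06, 11.21 and 11.19 and fell by 2.52 (SE 0.26, adjusted p = 0.0031). Acsbg1, an acyl-CoA synthetase, read 8.54, 7.92 and 7.36 against 9.76, 10.11 and 10.55 and fell by 2.20 (SE 0.33, adjusted p = 0.0077), and its adjacent samples read 6.94, 6.51 and 6.73.

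Detoxification and redox enzymes held 36 higher and 28 lower of 141 (25.5% and 19.9%), both above the shares of all genes, with a median of 0.06 (0.00 with signals under 50 set to 50). Gpx2, whose promoter is printed above, read 12.58, 13.80 and 13.19 in tumors and 7.34, 7.69 and 7.71 in normal bladders, and adjacent samples read 12.15, 13.19 and 13.91. Hmox1, the haem oxygenase, read 13.40, 12.39 and 11.17 against 8.29, 7.79 and 8.61, a 17.0-fold rise (log2 difference 4.09, SE 0.52, adjusted p = 0.0052) that was highest in tumor 1. Akr1b8, an aldo-keto reductase, read 14.45, 14.77 and 13.98 against 9.37, 10.57 and 9.49. Nqo1, a quinone reductase, read 14.10, 14.53 and 14.10 against 12.29, 11.39 and 11.65, a 5.53-fold rise (adjusted p = 0.0029), and Srxn1, the sulfiredoxin, was 3.31-fold higher (adjusted p = 0.0048). Gsta3, a glutathione S-transferase of a family with near-identical members, read 11.63, 12.99 and 10.98 against 8.12, 7.80 and 7.56, a 16.5-fold rise (adjusted p = 0.0040) whose probes may share signal with its relatives.

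Several genes of glutathione supply and synthesis were higher. Cystine enters through Slc7a11 and returns from extracellular glutathione through Ggt1, both described above. Gclm, the modifier chain of the first synthetic step, read 11.21, 11.91 and 11.02 in tumors against 9.46, 9.42 and 9.41, a 3.86-fold rise (adjusted p = 0.0040), and Gss, which completes the tripeptide, was 2.39-fold higher (adjusted p = 0.0068). Gclc, the catalytic chain, and Gsr, the reductase, were 1.72-fold (adjusted p = 0.043) and 2.33-fold higher (adjusted p = 0.020), and both calls ended without any 1 normal bladder, the second also without tumor 3. Nfe2l2, the gene of the Nrf2 factor, read 12.68, 13.59 and 13.54 against 12.41, 12.38 and 12.18, with tumor 1 near normal, and its call (adjusted p = 0.039) ended without tumor 2, tumor 3 or any 1 normal bladder.

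Several oxidising and conjugation enzymes were lower. Sult1a1, a phenol sulphotransferase, read 7.48, 5.26 and 7.03 in tumors and 10.54, 11.31 and 11.31 in normal bladders and fell by 4.46 (SE 0.55, adjusted p = 0.0047). Ces1d, a carboxylesterase, read 5.52, 4.29 and 4.20 against 10.49, 10.57 and 9.58, at least 23.8-fold lower because every tumor was under a signal of 50 (adjusted p = 0.0016). Fmo2 and Fmo5, flavin monooxygenases, fell by 4.06 (SE 0.39, adjusted p = 0.0027) and 3.48 (SE 0.31, adjusted p = 0.0023). Sesn1, a sestrin, read 8.79, 8.63 and 8.41 against 9.90, 9.84 and 10.14. Over the 4 metabolic lists, the 121 rises became 181, 94 and 78 without tumors 1, 2 and 3 and 55, 52 and 56 without normal bladders 1, 2 and 3. The 78 falls became 111, 57 and 43, and 27, 23 and 26, where the share of all genes without tumor 1 was 20.4% higher and 17.5% lower. In all 6 fits, 48 rises and 22 falls of 537 genes held, against 505 and 279 of all 14217 genes.

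Tumors were also set against the adjacent tissue of the same 3 rats, which asks whether the changed genes separate the carcinoma from the tissue beside it. At an adjusted p under 0.05 in limma, 0 of 31042 probe sets were higher and 0 lower (0.00% in each direction and by gene), while 845 (2.72%) had an unadjusted p under 0.05. None of the 82 named genes passed, and their lowest adjusted p was 1.0. A test that calls no probe set does not show that the tissues were alike. Both comparisons share the tumor arrays, so values are given side by side. Gjb2 averaged 13.11 in tumors, 13.08 in adjacent tissue and 8.71 in normal bladders, and Eya2 11.07, 10.97 and 7.04. For Hmox1 the means were 12.32, 10.59 and 8.23, with adjacent tissue between the other two. For Col4a6 they were 7.41, 7.48 and 10.43, and for Hsd11b2 7.74, 7.86 and 11.8. Smooth muscle markers stood at 35.9%, 15.3% and 10.3% of the normal mean in adjacent samples 1, 2 and 3 and neutrophil markers at 2730%, 2670% and 21600%. The other 6 neutrophil markers summed to 675%, 267% and 1850% there.

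**Figure D5:**
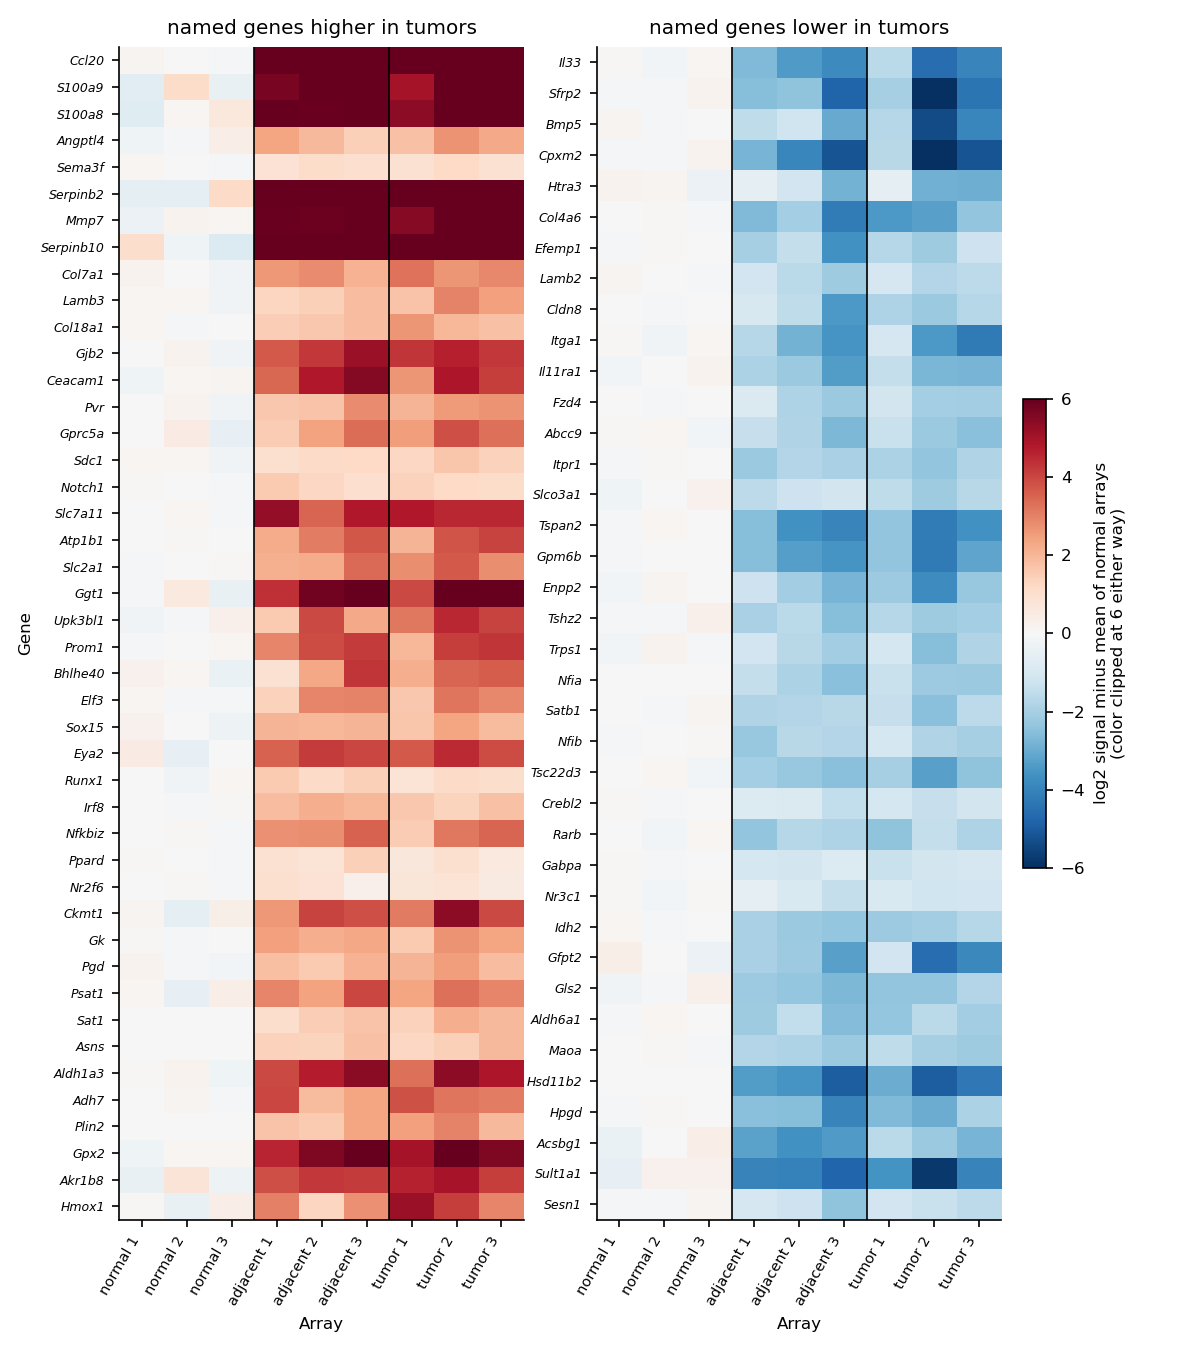
Log2 signal minus the mean of the 3 normal arrays for the 82 named genes (rows, 44 higher in tumors on the left and 38 lower on the right) in each of the 9 arrays (columns); red is higher and blue lower, with color clipped at 6 in either direction. The genes were chosen on tumors against normal bladder, so the contrast between those columns is fixed by the choice; tumor 1 is paler than tumors 2 and 3 for stromal genes such as Sfrp2, Cpxm2 and Itga1 (10.62, 8.91 and 11.26 in tumor 1).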

How the data were processed

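RNA of 3 tumors, 3 adjacent tissues and 3 normal bladders was hybridised to Affymetrix rat arrays, 1 sample an array. The authors deposited log2 values of the signal that MAS5 computed from the perfect-match and mismatch probes, already scaled: the trimmed mean of the linear signal, leaving out 2% of probe sets at each end, was 500.1 to 500.2 on every array. MAS5 values of dim probe sets spread widely, and 1586 values were at log2 0. The number of arrays limits the precision.

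The 57 array controls were left out, and all 31042 remaining probe sets were fitted in limma 3.58.1 (R 4.3.3), tumor and normal arrays only, with a mean-variance trend and Benjamini-Hochberg adjustment at 0.05. Of these, 20826 had 1 gene in the platform annotation, 436 several and 9780 none. A gene was read from its probe set with the highest mean over 9 arrays, and probe sets of several genes were not named. Cpxm2, Htra3, Fzd4, Nfkbiz, Crebl2, Ppard, Nr2f6, Nr3c1, Gk, Plin2 and Sesn1 have other probe sets, none of which passed. Ceacam1 and Abcc9 have others of which only some passed. Where every array of the lower group lay under a signal of 50, a limit set after the data were seen, the fold is the higher group's mean over 50, written as at least. The gene lists and members were chosen with earlier results of these data known. The labels do not say more of the replicates than their titles and the design do. The p-values set a difference of means against the spread between these samples, which limma moderates with that of other probe sets. The fit was also run on made-up data with known changes, in which tumors and normal bladders had the same spread for each probe set. In the real data tumors could spread far more, as for Sfrp2 (SD 3.06 against 0.18). That run therefore does not show how the fit handles unequal spread.

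Titles number the samples 1 to 3 in each group. Tumor and normal samples with 1 number come from different rats, and their deviations from the group means correlated at 0.002, 0.013 and -0.014. Tumor and adjacent samples are paired by rat in the design, and theirs correlated at 0.24, 0.044 and 0.137. Alternatives were quantile normalization, centring on the array median, a filter at the 40th percentile, log2(signal + 50), no trend, all 9 arrays, the replicate block, the mean of all probe sets of a gene, each array left out, and the methods' test of means, adjusted or not. Scanner-level files were not used here. Promoter sequences are from RefSeq on GRCr8, matched by symbol.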

Additional observations from a re-analysis of the deposited data

How the results depend on the processing

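Quantile normalization, centring, the filter, the pseudocount of 50, all 9 arrays together and the mean of all probe sets kept each class count within 1.5 times its value. Without a variance trend, 1146 probe sets were higher and 1230 lower, with 13 secreted genes lower, 64 surface genes higher and 36 lower, 21 transcription factor genes higher and 23 lower, and 62 metabolic genes higher and 36 lower. The methods' test with adjustment gave 1000 higher and 764 lower probe sets, with 24 and 6 secreted, 38 and 16 surface, 13 and 13 transcription factor, and 53 and 24 metabolic genes. Unadjusted and with a 2-fold limit it gave 1645 higher and 2422 lower probe sets against normal bladder. Against adjacent tissue it then gave 217 higher and 178 lower. The replicate block, whose numbers do not pair tumor and normal rats, gave 1793 higher probe sets and 26 higher transcription factor genes, and it left tumor against adjacent tissue at 0 calls. Leaving out 1 array at a time gave 841 to 4225 higher and 612 to 4991 lower probe sets. The ranges were 36 to 68 and 9 to 138 secreted, 53 to 149 and 24 to 162 surface, 10 to 65 and 14 to 101 transcription factor, and 52 to 181 and 23 to 111 metabolic genes, the highest always without tumor 1. The cause of these moves was not tested, beyond the fewer arrays in each such fit. Of the 82 named genes, 71 kept their call without each array, 50 kept it under the methods' adjusted test, 72 without a variance trend, and none changed direction under an alternative that gave it a value (the filter left out Ccl20 and Serpinb10). With 3 arrays a group, dim genes and small differences were the least well measured.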

Other observations

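Outside the 16 lists, 272 genes with a mean signal of at least 500 were higher and 130 lower in tumors. These had no overlap and a call in the full fit and without each array. Of all 14217 genes, 505 were higher and 279 lower by such calls, without limits on signal or overlap. The mean signal covers tumor, adjacent and normal arrays, and adjacent tissue lay on the tumor side for all 82 named genes. A rise can therefore reach the limit of 500 more easily than a fall, so the split between 272 and 130 is not interpreted. Genes named here were chosen after their values were seen. Krt6c, a keratin of activated and squamous epithelium, read 12.83, 12.80 and 13.23 in tumors against 6.47, 6.22 and 6.68 in normal bladders (log2 difference 6.50, SE 0.18, adjusted p = 3.9e-05 in limma). Lgals4, a galectin of gut epithelium, read 13.00, 14.16 and 12.42 against 7.90, 7.27 and 7.71 (difference 5.57, SE 0.42, adjusted p = 0.0016). For RT1-Bb, a class II histocompatibility gene of the rat, the rise was at least 21.8-fold (adjusted p = 0.0010), and for Fgfbp1, a carrier that releases fibroblast growth factors from the matrix, it was at least 36.2-fold (adjusted p = 0.0029). Both were dim in every normal bladder. RT1-Bb has 2 probe sets, and its rise is that of the one with the higher mean. Cd74, another gene of class II presentation, read 13.08, 12.44 and 12.55 in tumors against 12.69, 12.58 and 12.57. It did not pass (adjusted p = 0.81 by limma).

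Lower genes outside the lists included genes of contractile tissue. Pln, phospholamban, a regulator of the calcium pump, read 8.75, 6.08 and 7.47 in tumors against 12.08, 12.53 and 12.08 and fell by 4.80 (SE 0.60, adjusted p = 0.0047 in limma). Fhod3, a formin of muscle, fell by 4.86 (SE 0.54, adjusted p = 0.0035). Spon2, a secreted matrix protein, read 7.65, 6.63 and 6.77 against 10.65, 10.71 and 10.97 and fell by 3.76 (SE 0.28, adjusted p = 0.0016), and Ppm1l, a protein phosphatase, fell by 3.57 (SE 0.18, adjusted p = 0.00035). Tumor 1 was the highest tumor for Pln and Spon2, and smooth muscle markers were also highest in tumor 1. Their part in these values was not tested.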
